A study of Mus musculus with 8 samples.

Results

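The 7 genes described here are the mouse MHC class II chain genes H2-Aa, H2-Ab1 and H2-Eb1, the invariant chain gene Cd74, the peptide-loading genes H2-DMa and H2-DMb1, and the class II transactivator gene Ciita. They were taken by symbol from the gene lists of the libraries, and 7 of 7 were found among the 30406 genes listed in both replicates. Their UMIs (unique molecular identifiers, each standing for 1 captured RNA molecule) were followed in 6 islet cell classes, which were macrophages, endothelial cells, mesenchymal cells, β-cells, α-cells and δ-cells.

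The study asked how nitric oxide made under cytokine exposure changes gene expression in the cells of the islet. In each of 2 replicates, islets of 10 male C57BL6/J mice aged 12 to 16 weeks were pooled and then divided over 4 conditions for 18 h, which gave 8 libraries. The conditions were untreated (Untreated), 10 U/mL human IL-1β with 150 U/mL mouse IFN-γ (Cytokines), the same cytokines with 2 mM of the nitric oxide synthase inhibitor NMMA (Cytokines+NMMA), and 2 mM NMMA alone (NMMA). All mice were wild-type animals of 1 inbred strain, a replicate is a pool and not an animal, and p-values therefore measure the spread between these pools.

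Class II molecules are heterodimers of an α and a β chain that carry peptides from the endosomal route to the cell surface, where CD4+ T cells read them. They are made mainly by professional antigen-presenting cells such as macrophages, dendritic cells and B cells, and many other cell types make them when exposed to IFN-γ. The signal from the IFN-γ receptor reaches Ciita by way of IRF1 among other factors, whose product binds no DNA itself and acts through factors seated on the X and Y boxes of class II promoters. H2-Eb1 encodes the β chain of I-E, and C57BL/6 mice make no I-E on the cell surface because the gene of its α chain is defective.

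The promoters of H2-Aa, H2-Eb1 and H2-DMb1 are printed to show the boxes through which Ciita acts. Each line is the 120 bases before the transcription start in RefSeq (GRCm38.p6), 5′ to 3′ on the strand of the gene, and capitals mark an X box, a cAMP response element (CRE) or a Y box. The windows are chr17:34287824-34287943 (minus strand) for H2-Aa, chr17:34305747-34305866 (plus strand) for H2-Eb1 and chr17:34153071-34153190 (plus strand) for H2-DMb1.
H2-Aa: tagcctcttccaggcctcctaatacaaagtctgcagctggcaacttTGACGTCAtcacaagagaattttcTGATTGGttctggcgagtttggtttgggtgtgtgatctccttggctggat
H2-Eb1: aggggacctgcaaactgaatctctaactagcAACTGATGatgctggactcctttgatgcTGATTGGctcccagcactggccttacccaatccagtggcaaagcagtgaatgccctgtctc
H2-DMb1: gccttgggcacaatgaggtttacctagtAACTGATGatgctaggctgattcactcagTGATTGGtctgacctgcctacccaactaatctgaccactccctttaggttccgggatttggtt

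The motifs searched were the Y box TGATTGG, the X box AACNGATG and the CRE TGACGTCA, on both strands. H2-Eb1 holds an X box at bases 89 to 82 before the start and a Y box at bases 61 to 55, with 20 bases between them. H2-DMb1 holds them at bases 92 to 85 and 63 to 57, with 21 bases between them. In H2-Aa a CRE at bases 74 to 67 stands 16 bases before a Y box at bases 50 to 44, and the X box letters searched are not in this window. Of 32851 promoters of 300 bases in the table, 7.82% hold the Y box, 2.32% the X box and 1.79% the CRE. An X box followed by a Y box after 15 to 30 bases was in 5 of them (0.0152%), those of H2-Eb1, H2-DMb1, their neighbours H2-Eb2 and H2-DMb2, and BC051142. In the windows of the 2 listed starts of H2-DMa none of these letters were found. These matches are a description of the letters and were not tested for binding.

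Positions are from GENCODE M21 (GRCm38), whose gene IDs matched those of the files for all 7 genes. On chromosome 17 lie H2-DMa at chr17:34119541-34139101, H2-DMb1 at chr17:34153072-34160230, H2-Ab1 at chr17:34257689-34269419 and H2-Eb1 at chr17:34305867-34316674, all on the plus strand, and H2-Aa at chr17:34282744-34287823 on the minus strand. Cd74 lies at chr18:60803848-60812652 and Ciita at chr16:10480059-10528418, both on the plus strand. In that annotation H2-DMa shares 3094 bases with Brd2, Ciita 25888 bases with Dexi and H2-Eb1 2204 bases with Gm20513, each on the opposite strand, and H2-DMa shares 591 bases with CR974462.3 on the same strand. How the counting treated strand is not given in the sources used here, so low counts of these 3 genes may hold reads of a neighbour.

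The matrices held 26549922 to 50731370 UMIs per library, and 10876 of 17426 barcodes were kept, of which 14 barcode sequences (28 cells) occurred in more than 1 library. Clustering of the kept cells left out the class II genes. Each cluster took its name from its markers, so that a class name means "like" that cell type. The libraries held 28 to 70 macrophages, 14 to 52 endothelial cells, 12 to 50 mesenchymal cells, 452 to 1656 β-cells, 48 to 112 α-cells and 9 to 85 δ-cells. The δ-cells of the cytokine libraries numbered 9 and 12, and the library with 9 was left out of the tests, so that the δ-cell value for cytokines rests on 1 library. Macrophages with cytokines lay mostly in clusters 2001 and 2004 and untreated ones in 2000 and 2003, endothelial cells in 20 and 14, and δ-cells in 1006 against 1005 and 1008. Likewise β-cells lay in clusters 0 and 3 untreated, 1 and 4 with cytokines and 7 and 4 with cytokines and NMMA, and α-cells in 1003 and 1001, 1007, and 1000. The changes within these classes therefore compare different clusters. Levels here and below are CPM, the UMIs of a gene per 1000000 UMIs of the class in that library, which are counts of 3′ ends not divided by gene length. The summed markers of macrophages were at 22420 to 24950 CPM in untreated macrophages, those of dendritic cells at 0 there and at up to 17.2 in the other conditions. Markers of β-cells stood at 2280 to 8408 in macrophages of all conditions.

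Macrophages held nearly all class II RNA of untreated islets. They were 1.7 and 3.9% of the kept cells of the untreated libraries and carried 91.8 and 96.2% of the UMIs of the 6 class II genes without Ciita. With cytokines their part was 67.6 and 84.1%, and with cytokines and NMMA it was 51.6 and 79.1%. The part of the β-cells was 4.53 and 2.28% untreated, 25 and 8.7% with cytokines and 26.5 and 8.2% with cytokines and NMMA. The δ-cells held 0.54 and 0.01% untreated and 15.1 and 5.0% with cytokines and NMMA, where they were 6.3 and 3.4% of the cells. In NMMA replicate 1, 39.7% of the class II UMIs were in a cluster of B cells. In each pair the first value is replicate 1.

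**Figure D1:**
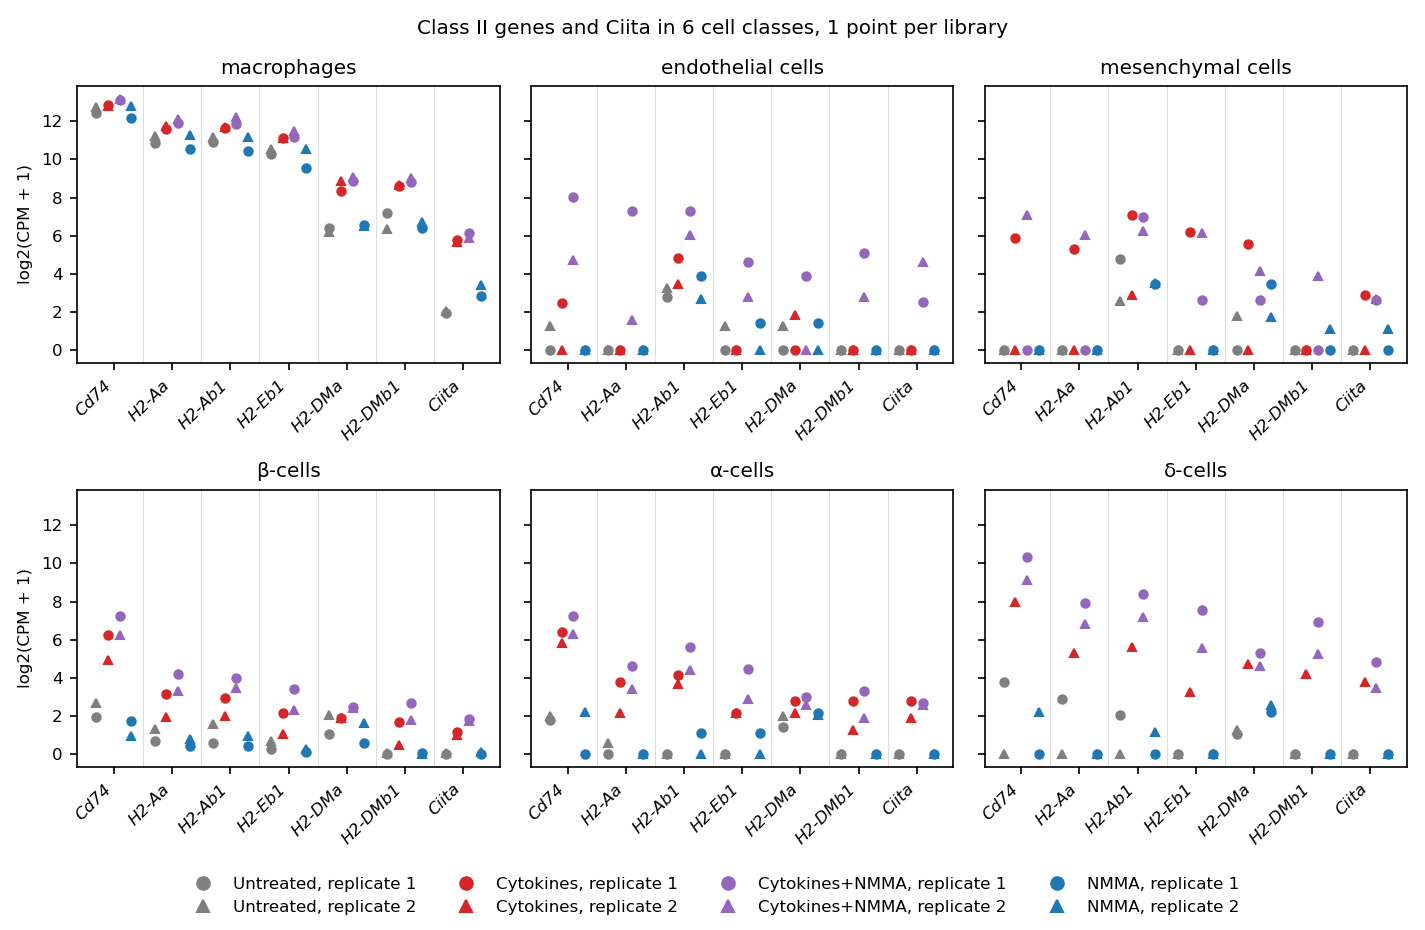
CPM of the 7 genes as log2(CPM + 1), in 6 cell classes, with 1 point per library, the colour for the condition and circles for replicate 1 and triangles for replicate 2. Macrophages carried the chain genes and Cd74 in every library at the level of H2-Eb1 in NMMA replicate 1 (756.2 CPM) or above it, while in β-, α- and δ-cells the genes other than H2-DMa stood lower without cytokines than with them. The library with 9 δ-cells is left out.

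The plot of the 7 genes by library shows how far the basal levels of the classes lay apart. In macrophages the level of Cd74, which escorts class II dimers to the endosome and blocks their groove, was 5572 and 6853 untreated, 7529 and 7040 with cytokines, 8775 and 9355 with cytokines and NMMA, and 4584 and 7130 with NMMA. The cytokine libraries were both above the untreated ones, by a ratio of 1.14, and the libraries with cytokines and NMMA were above both. The change from untreated was not called with cytokines (log2 change 0.34 ± 0.25 SE, adjusted p = 0.588) or with cytokines and NMMA (0.64 ± 0.25, adjusted p = 0.164, edgeR quasi-likelihood test with Benjamini-Hochberg adjustment over all genes tested, as for every adjusted p below). With the replicate as a block the second was called (0.65, adjusted p = 0.0233).

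The chains of I-A, H2-Aa (α) and H2-Ab1 (β), moved by more than Cd74 in macrophages. H2-Aa stood at 1831 and 2426 untreated, 3126 and 3432 with cytokines, 3798 and 4441 with cytokines and NMMA, and 1484 and 2504 with NMMA. H2-Ab1 stood at 1901 and 2283, 3243 and 3346, 3768 and 4796, and 1369 and 2289 in the same order. For both genes every library with cytokines lay above every library without them. H2-Eb1, the I-E chain that has no partner in this strain, had the same order, with 1260 and 1495 untreated, 2204 and 2258 with cytokines, 2305 and 2841 with cytokines and NMMA, and 756.2 and 1508 with NMMA. With cytokines the 3 chain genes had ratios of 1.47 to 1.58 and none was called (adjusted p = 0.151 to 0.205). With cytokines and NMMA H2-Aa (log2 change 1.05 ± 0.28, adjusted p = 0.0332) and H2-Ab1 (1.13 ± 0.27, adjusted p = 0.0185) were called, and H2-Eb1 (0.99 ± 0.30, adjusted p = 0.0753) was not.

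The largest steps in macrophages were in the loading genes and Ciita. H2-DMa and H2-DMb1 encode the heterodimer that frees the groove for peptide. H2-DMa was at 84.0 and 71.7 untreated, 326.0 and 468.3 with cytokines, 460.4 and 549.9 with cytokines and NMMA, and 93.7 and 90 with NMMA. H2-DMb1 was at 147.8 and 79.5, 386.5 and 405.5, 446.8 and 517.3, and 84.4 and 106.1. Neither gene had a library without cytokines within the range of those with them. H2-DMa rose by a log2 change of 2.47 ± 0.28 with cytokines (adjusted p = 4.56e-05) and 2.80 ± 0.28 with cytokines and NMMA (adjusted p = 1.05e-05), and H2-DMb1 by 1.94 ± 0.30 (adjusted p = 0.000936) and 2.21 ± 0.30 (adjusted p = 0.00024).

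Ciita, the master switch of the group, was at 2.90 and 3.12 in untreated macrophages, which is 3 UMIs in all, at 53.98 and 49.71 with cytokines (44 UMIs), at 70.83 and 57.48 with cytokines and NMMA (56 UMIs), and at 6.25 and 9.64 with NMMA. The ratio to untreated was 17.1 with cytokines (95% counting interval 5.49 to 86.2) and 20.7 with cytokines and NMMA (6.73 to 103). The log2 changes were 4.07 ± 0.55 (adjusted p = 0.000246) and 4.35 ± 0.53 (adjusted p = 7.83e-05).

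With cytokines 3 of the 7 genes were therefore called in macrophages, where 4.76% of all genes tested were called (3.8% higher), and with cytokines and NMMA 5 of 7 against 6.49% (5.18% higher), each of the genes higher. Ciita, with 3 untreated UMIs, passed the filter on low counts through the libraries with cytokines. A rise was in effect the only change it could show, so its call is not read against those shares. The median log2 change of the 7 was 0.80 and 1.13, beside -0.01 and -0.03 for all genes tested. With the replicate as a block 6 and 7 genes were called. The count with cytokines and NMMA fell to 3 without untreated replicate 1, without untreated replicate 2 or without Cytokines+NMMA replicate 2, where H2-Aa and H2-Ab1 lost their call.

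Single macrophages were compared at 1000 UMIs per cell, a depth that keeps most macrophages of every library. At that depth 89.3 to 96.6% of macrophages had a Cd74 UMI in every condition. The median number of UMIs of the 6 class II genes per macrophage was 8 and 10 untreated, 13 and 14 with cytokines, 17 and 22.5 with cytokines and NMMA, and 7 and 11 with NMMA. H2-Aa, H2-Ab1 and Cd74 were found together in 37.1 and 59.3% of untreated macrophages, 61.3 and 70.6% with cytokines and 80 and 86.8% with cytokines and NMMA. A Ciita UMI was seen in 0 of 35 and 0 of 59 untreated macrophages at this depth, which allows up to 8.57 and 5.08%, and in 9.68 and 5.88% with cytokines and 4 and 2.63% with cytokines and NMMA. These shares run against the CPM of Ciita, and no order is read from them. Without thinning, the mean share with a Ciita UMI was 28.9% with cytokines and 47.9% with cytokines and NMMA.

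β-cells, the insulin-producing cells and the largest class, gained class II RNA from a level near 0. Cd74 was at 2.82 and 5.52 untreated, 75.22 and 30.10 with cytokines, 148.9 and 74.69 with cytokines and NMMA, and 2.38 and 0.95 with NMMA. All libraries with cytokines lay above all libraries without, and replicate 1 was above replicate 2 in both cytokine conditions. The ratio to untreated was 16.1 with cytokines (13.9 to 18.8, counting error only) and 32.9 with cytokines and NMMA (28.4 to 38.3). The log2 changes were 3.94 ± 0.79 (adjusted p = 0.0146) and 4.82 ± 0.81 (adjusted p = 0.016).

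The 3 chain genes rose with Cd74 in β-cells at a lower level. H2-Aa was at 0.63 and 1.48 untreated, 7.92 and 2.90 with cytokines and 17.29 and 9.01 with cytokines and NMMA, and H2-Ab1 at 0.51 and 1.99, 6.73 and 3.02, and 14.94 and 10.13. H2-Eb1 was at 0.23 and 0.64, 3.55 and 1.09, and 9.87 and 4.04. The NMMA libraries were at 0.10 to 0.95 for these genes, and no library without cytokines reached one with them. With cytokines the log2 changes were 2.72 ± 0.67 for H2-Aa (adjusted p = 0.0162), 2.37 ± 0.69 for H2-Ab1 (adjusted p = 0.0313) and 2.85 ± 0.78 for H2-Eb1 (adjusted p = 0.0211). The replicate block ended the call of H2-Ab1 (adjusted p = 0.059), and so did scaling by total UMIs. With cytokines and NMMA the changes were 3.78 ± 0.67, 3.50 ± 0.70 and 4.19 ± 0.77 (adjusted p = 0.009, 0.0142 and 0.00794).

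The 2 loading genes differed from each other in β-cells. H2-DMb1 had 1 UMI in all untreated β-cells and was at 0 and 0.06 untreated, 2.19 and 0.42 with cytokines and 5.51 and 2.49 with cytokines and NMMA. H2-DMa was already at 1.06 and 3.21 untreated, was at 2.66 and 2.77 with cytokines, 4.47 and 4.38 with cytokines and NMMA, and 0.51 and 2.16 with NMMA, and its untreated and cytokine libraries overlapped. H2-DMb1 was called in both comparisons (adjusted p = 0.00722 and 0.00426), with ratios of 78.4 (13.6 to 3140) and 220 (38.7 to 8738) that rest on that 1 UMI. H2-DMa was called in neither (log2 change 0.66 ± 0.60, adjusted p = 0.408, and 1.15 ± 0.60, adjusted p = 0.221). Under the block the second passed (1.29, adjusted p = 0.041).

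Ciita also came up from 1 UMI in β-cells. It was at 0 and 0.06 untreated, 1.26 and 1.03 with cytokines (54 UMIs), 2.56 and 2.32 with cytokines and NMMA (74 UMIs), and 0 and 0.07 with NMMA. The ratios were 59.6 (10.3 to 2399) and 125 (21.7 to 5002), and the gene was called in both comparisons (adjusted p = 0.000684 and 0.000446). In β-cells 6 of 7 genes were thus called with cytokines, where 46.3% of all genes tested were called in either direction and 23.8% higher, and 6 of 7 with cytokines and NMMA, where 22.7% were called and 12.9% higher. All were higher, with a median log2 change of the 7 of 2.85 and 4.19, beside 0.0011 and -0.0034 for all genes. H2-DMb1 and Ciita, with 1 untreated UMI each, passed the filter on low counts through the libraries with cytokines. H2-Eb1, with 18 untreated UMIs, also needed these libraries to pass. For H2-DMb1 and Ciita a rise was in effect the only change they could show. The calls of these 3 genes are not read against those shares. The first count was 1 and the second 2 when untreated replicate 1 was left out, and the first was 3 without Cytokines replicate 1. In untreated replicate 2, 1 β-cell held 95 of the 201 class II UMIs of the class, together with 5 UMIs of the macrophage genes Lyz2, C1qb, C1qc and Tyrobp.

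α-cells, which make glucagon, followed the pattern of β-cells. Cd74 was at 2.47 and 3.05 untreated, 83.94 and 56.58 with cytokines, 153.1 and 77.97 with cytokines and NMMA, and 0 and 3.69 with NMMA, and every library with cytokines lay above every library without. The log2 changes were 5.06 ± 0.62 (adjusted p = 0.000735) and 5.39 ± 0.59 (adjusted p = 0.000551). H2-Aa, with 1 untreated UMI, was at 13.01 and 3.49 with cytokines and 23.73 and 9.81 with cytokines and NMMA.

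In untreated α-cells 4 genes had no UMI, and their ratios are bounds set by 3 UMIs over the group. H2-Ab1 was at 16.55 and 11.87 with cytokines and 48.06 and 20.72 with cytokines and NMMA, which is at least 14.4-fold and at least 35.8-fold higher. The bounds were at least 3.72-fold and 14.1-fold higher for H2-Eb1, at least 3.26-fold and 6.02-fold higher for H2-DMb1 and at least 4.19-fold and 5.42-fold higher for Ciita, which had 9 and 18 UMIs. H2-DMa, as in β-cells, was present before cytokines, at 1.65 and 3.05 untreated, 5.91 and 3.49 with cytokines and 7.12 and 4.91 with cytokines and NMMA. H2-DMa, H2-DMb1 and Ciita were too low to be tested. The other 4 were called in both comparisons, each of them higher, where 20.7% and 7.33% of all genes tested were called (12.3% and 5.49% higher). All 4 passed the filter on low counts through the libraries with cytokines. Of these, H2-Ab1 and H2-Eb1 had no untreated UMI, H2-Aa had 1 and Cd74 had 9. A rise was in effect the only change they could show, so their calls are not read against those shares. Without untreated replicate 1, untreated replicate 2 or Cytokines replicate 1 the first count was 2. Leaving out every cell with a UMI of 12 macrophage markers, which kept 27 to 67 α-cells per library, left 1 and 2 calls. With only cells holding a UMI of Lyz2, C1qb, C1qc or Tyrobp left out, H2-Eb1 alone lost its calls, as it was not tested there.

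δ-cells, which make somatostatin, reached the highest class II levels of the endocrine classes. Cd74 was at 12.90 and 0 untreated, at 251.4 in the tested cytokine library, at 1307 and 565.6 with cytokines and NMMA, and at 0 and 3.70 with NMMA. The 9 δ-cells of Cytokines replicate 1 stood at 30.7. With cytokines and NMMA the ratio was 134 (76.2 to 259), and the log2 change of 7.02 ± 1.16 was not called by edgeR (adjusted p = 0.0686). The untreated libraries held 12 and 0 UMIs of the gene.

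The other genes went the same way in δ-cells with cytokines and NMMA. H2-Aa was at 6.45 and 0 untreated and at 243.3 and 113.9 with cytokines and NMMA (log2 change 5.57 ± 0.82, adjusted p = 0.0305). H2-Ab1 was at 3.23 and 0, and at 331.0 and 145.2 (6.91 ± 0.71, adjusted p = 0.000841). H2-DMa was at 1.08 and 1.38, and at 38.08 and 23.78 (4.50 ± 0.63, adjusted p = 5.27e-05). These 3 genes had 6, 3 and 2 untreated UMIs and passed the filter on low counts only through libraries with cytokines. H2-Eb1, H2-DMb1 and Ciita had no UMI in untreated δ-cells and passed it in the same way. They were at least 67.4-fold, 45.6-fold and 10.8-fold higher, with 213, 144 and 34 UMIs, of which Ciita was called (adjusted p = 0.00228). DESeq2 did not call Ciita (adjusted p = 0.735) or H2-Aa (adjusted p = 0.0944). Ciita was not tested without Cytokines+NMMA replicate 1, without Cytokines replicate 2 or with sums of at least 5 cells. In all, 4 of 7 were called with cytokines and NMMA (8.61% of all genes tested, 6.05% higher) and 1 of 7, H2-DMa, with cytokines (6.07%, 4.48% higher). With the replicate block 7 of 7 were called in each. A rise was in effect the only change that H2-Aa, H2-Ab1, H2-DMa and Ciita could show. Their calls are therefore not read against the shares of all genes. The cytokine arm is 1 library of 12 cells, so its tests assume that it varies like the other groups. Leaving out every cell with a UMI of the 12 macrophage markers, which kept 24 and 12 δ-cells with cytokines and NMMA, left 0 of the 4 calls. Only H2-Ab1 of those 4 could still be tested (log2 change 8.64, adjusted p = 0.578). The 12 include C1qa and Cd68, which stood outside their macrophage ratio in endocrine cells, as described below. Leaving out cells with a UMI of Lyz2, C1qb, C1qc or Tyrobp ended none of the 4 calls. The cause of this difference was not tested. For cytokines the count was 0 without untreated replicate 1 and 3 without either Cytokines+NMMA replicate.

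Among sums with at least 53 class II UMIs, a single cell held most of them in 1 library of endothelial cells and 2 of mesenchymal cells. Some libraries with 8 or fewer such UMIs also had most of them in 1 cell. In endothelial cells H2-Ab1 was at 6.02 and 8.75 untreated, 27.98 and 10.27 with cytokines, 159.5 and 65.07 with cytokines and NMMA, and 13.76 and 5.56 with NMMA. The libraries with cytokines and NMMA lay above the others, by a ratio to untreated of 12.2 (6.08 to 27.9) and a log2 change of 3.95 ± 0.55 (adjusted p = 0.000141). It was 1 of 2 genes called, where 6.64% of all genes tested were (5.02% higher), and 0 of 2 were called with cytokines (6.33%, 4.58% higher). At an unadjusted p under 0.05 the latter count was also 0, and DESeq2 gave 0 as well. The 2 genes tested, H2-Ab1 and Cd74, had 9 and 1 untreated UMIs. They passed the filter on low counts through the libraries with cytokines and NMMA, so the call of H2-Ab1 is not read against those shares.

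In Cytokines+NMMA replicate 1, however, 1 endothelial cell held 124 of the 138 class II UMIs and 127 of the 128 UMIs of the macrophage genes Lyz2, C1qb, C1qc and Tyrobp. In replicate 2 the top cell held 10 of 53, with all 3 UMIs of those macrophage genes. Without that replicate 3 genes were called. There Cd74 was at 25.63, H2-Ab1 at 65.07 and Ciita at 23.66 (12 UMIs), while H2-Aa was at 1.97. Without every cell that carried 1 of those 4 macrophage genes, the share of endothelial cells with H2-Ab1 at 4500 UMIs per cell was 18.3% with cytokines and NMMA, beside 25.6% with them.

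In mesenchymal cells Cd74 was at 58.95 and 0 with cytokines, at 0 and 134.9 with cytokines and NMMA, and at 0 in the other 4 libraries. In Cytokines+NMMA replicate 2, 1 cell held 122 of 136 class II UMIs and all 57 UMIs of the 4 macrophage genes. In Cytokines replicate 1, 1 cell held 50 of 54 and no macrophage UMI. H2-Ab1 was at 26.88 and 5.03 untreated, 137.6 and 6.54 with cytokines and 127.4 and 74.35 with cytokines and NMMA. None of the 4 genes tested was called in either comparison, where 1.8% and 1.97% of all genes tested were (1.69% and 1.92% higher). By edgeR 0 and 1 of them had an unadjusted p under 0.05, and DESeq2 called 0.

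RNA of macrophages that floats in the suspension can enter any droplet, so the UMIs of each class were set against macrophage genes of the same library. Free RNA from 1 source keeps its genes in 1 ratio, and the value given is the number of Cd74 UMIs over the number that the UMIs of 12 macrophage markers in that class would bring along at the ratio of the library's own macrophages. With the 12 markers Cd74 in β-cells was at 0.17 and 0.37 times that number untreated, 1.9 and 1.5 times with cytokines and 2.1 and 2.5 times with cytokines and NMMA. For α-cells it was 0.2 and 0.21 times untreated, 5 and 4.4 times with cytokines and 7.7 and 4.2 times with cytokines and NMMA. In δ-cells the values were 0.54 and 0 untreated, 9.5 in the tested cytokine library and 0.58 in the library of 9 cells, and 38.7 and 19.2 with cytokines and NMMA. All 3 endocrine classes were below the macrophage ratio untreated, and the tested libraries with cytokines were above it.

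**Figure D2:**
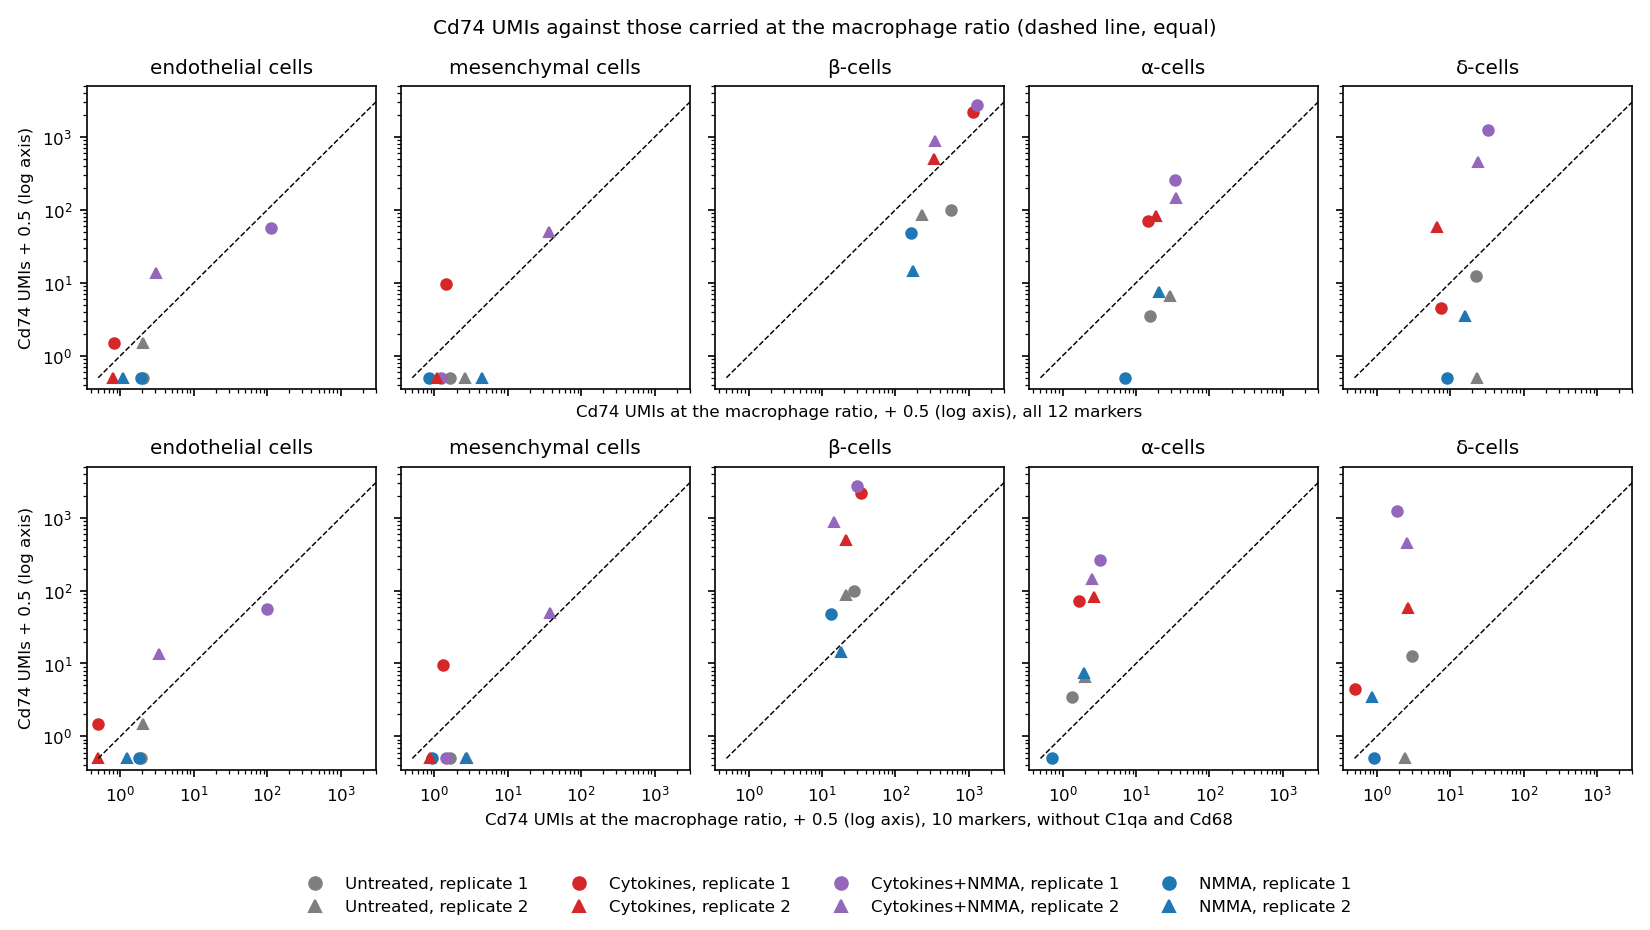
Cd74 UMIs observed in 5 classes (y, log axis, 0.5 added) against the number carried at the macrophage ratio (x, log axis, 0.5 added), to all 12 markers (top) and to 10 markers without C1qa and Cd68 (bottom), with 1 point per library, colours for the condition, circles and triangles for replicates 1 and 2 and a dashed line where both are equal. With 12 markers the cytokine points of β- and α-cells lie above the line and those without cytokines below it, and with 10 markers the cytokine points lie further above it.

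In the plot of Cd74 against the macrophage ratio the position of the endocrine points depends on C1qa and Cd68. These 2 markers stood outside their macrophage ratio in endocrine cells, with 2372 UMIs of C1qa and 82 of Cd68 among the 2551 marker UMIs of β-cells in untreated replicate 1, so references without them were added after these values were seen. With the other 10 markers Cd74 in β-cells was at 3.7 and 4.1 times the macrophage ratio untreated, 65.9 and 24.1 times with cytokines and 93.8 and 62.4 times with cytokines and NMMA. Among α-cells the same values were 3.6 and 3.9, 59.5 and 37.2, and 93.1 and 69.8. In δ-cells they were 26.7 in the tested cytokine library and 892 and 221 with cytokines and NMMA, from 3 and 5 marker UMIs. In endothelial cells with cytokines and NMMA it was 0.57 and 4.5 times. The narrower set of Lyz2, C1qb, C1qc and Tyrobp, which is also nearly absent from β-cells (0.66 to 1.86 CPM against 11805 to 15914 in macrophages), gave 175 and 86.1 times with cytokines. How large the ratio is thus depends on the markers chosen, and the part of free macrophage RNA in these levels was not tested.

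Shares of cells with a Cd74 UMI were counted at 7000 UMIs per cell in the 3 endocrine classes, with exact Clopper-Pearson intervals at 95% that cover counting error only. In β-cells the share was 0.98 and 1.7% untreated, 26.2% (23.7 to 28.9) and 12.8% (9.94 to 16) with cytokines, 29.3% (25.8 to 33.0) and 17.9% (14.2 to 22.1) with cytokines and NMMA, and 1.4 and 1.2% with NMMA. Among α-cells the share was 2.3 and 2.1%, 20.9 and 22.1%, 32.6 and 24.7%, and 0 and 1.0% in the same order, where 0 of 47 cells allows up to 6.38%. Among δ-cells 8.1 and 0% had one untreated, 50% of 12 cells with cytokines in replicate 2 and 11.1% of 9 in replicate 1, and 80.4% (67.6 to 89.8) and 63.2% (46.0 to 78.2) with cytokines and NMMA. The same share in endothelial cells, at 4500 UMIs, was 0 in every library but those with cytokines and NMMA (7.1 and 12.9%). Leaving out every cell with a UMI of the 4 macrophage genes left 44.8 and 30.2% of β-cells with Cd74 under cytokines at full depth, beside 44.8 and 29.8% with all cells.

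**Figure D3:**
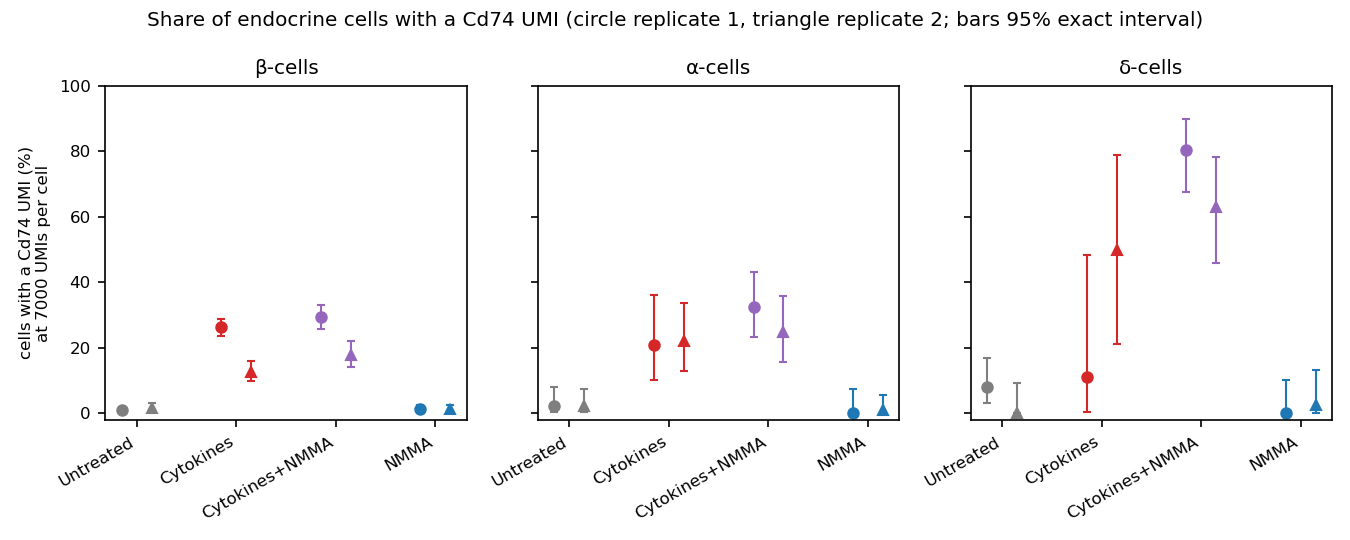
Share of β-, α- and δ-cells with at least 1 Cd74 UMI after thinning to 7000 UMIs per cell (y, percent), by condition, with circles for replicate 1, triangles for replicate 2 and bars for the exact 95% interval. The highest shares are those of δ-cells with cytokines and NMMA, at 80.4 and 63.2%, and every share without cytokines is at or below 8.1%.

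The plot of these shares shows that most δ-cells carried Cd74 with cytokines and NMMA, while most β- and α-cells did not at this depth. Class II RNA was spread unevenly among β-cells. The 10% of β-cells with the most class II UMIs held 62.0 and 62.7% of them with cytokines and 63.4 and 75.4% with cytokines and NMMA. In δ-cells with cytokines and NMMA the top 10% held 35.0 and 36.5%, and no δ-cell held more than 12.6%. H2-Aa, H2-Ab1 and Cd74 were found together in 39.3 and 31.6% of these δ-cells at 7000 UMIs, in 7.6 and 2.6% of α-cells and in 2.5 and 2.1% of β-cells.

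Whether 2 classes differed in their response was tested as an interaction term, with the library as a block. Macrophages and β-cells differed in 4 of 7 genes with cytokines, where 5.57% of all genes differed. The log2 change in macrophages minus that in β-cells was -1.87 ± 0.43 for H2-Aa (adjusted p = 0.00531), -1.59 ± 0.34 for H2-Ab1 (adjusted p = 0.000366), -3.78 ± 0.88 for H2-DMb1 (adjusted p = 0.00149) and 1.78 ± 0.38 for H2-DMa (adjusted p = 0.000228). With cytokines and NMMA the same 4 differed, by -2.63, -2.39, -4.82 and 1.67 (3.17% of all genes). In this fit H2-DMa rose more in macrophages, and the other 3 rose more in β-cells, from a far lower level. For H2-DMb1 that level was 1 UMI in all untreated β-cells. These differences depended on the library block, as given below. Between macrophages and endothelial cells (1.67% and 1.55% of all genes) and between β-cells and endothelial cells (6.31% and 3.01%) no member differed in either comparison, and H2-Ab1 had a difference of -2.77 ± 0.74 (adjusted p = 0.146) for macrophages minus endothelial cells with cytokines and NMMA.

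δ-cells and β-cells differed with cytokines and NMMA in Cd74 (2.15 ± 0.49 higher in δ-cells, adjusted p = 0.0101), H2-Ab1 (3.46 ± 0.67, adjusted p = 9.39e-05) and H2-DMa (3.47 ± 0.91, adjusted p = 0.0155), and also in H2-Eb1, which has no untreated UMI in δ-cells, where 1.25% of all genes differed. With cytokines no member passed between δ- and β-cells (2.91% of all genes did), and H2-Ab1 had a difference of 2.89 ± 0.92 (adjusted p = 0.0556). α-cells differed from β-cells in H2-Ab1 alone in both comparisons (3.39% and 0.987% of all genes), a gene without a UMI in untreated α-cells, and in neither without the library block. With cytokines this difference was also lost without untreated replicate 2, and 2 genes were called without either NMMA replicate. Without untreated replicate 2 no difference between δ- and β-cells was called, without Cytokines+NMMA replicate 1 the count was 2, and without untreated replicate 1 or Cytokines replicate 1 that of macrophages and β-cells with cytokines was 1. Without the library block none of the δ-cell differences held, and for macrophages and β-cells 0 held with cytokines and 1 with cytokines and NMMA. Between δ- and α-cells no member was called (3.62% and 0.325% of all genes), and the difference for Cd74 with cytokines and NMMA was 1.85 ± 0.81 (adjusted p = 0.579).

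**Figure D4:**
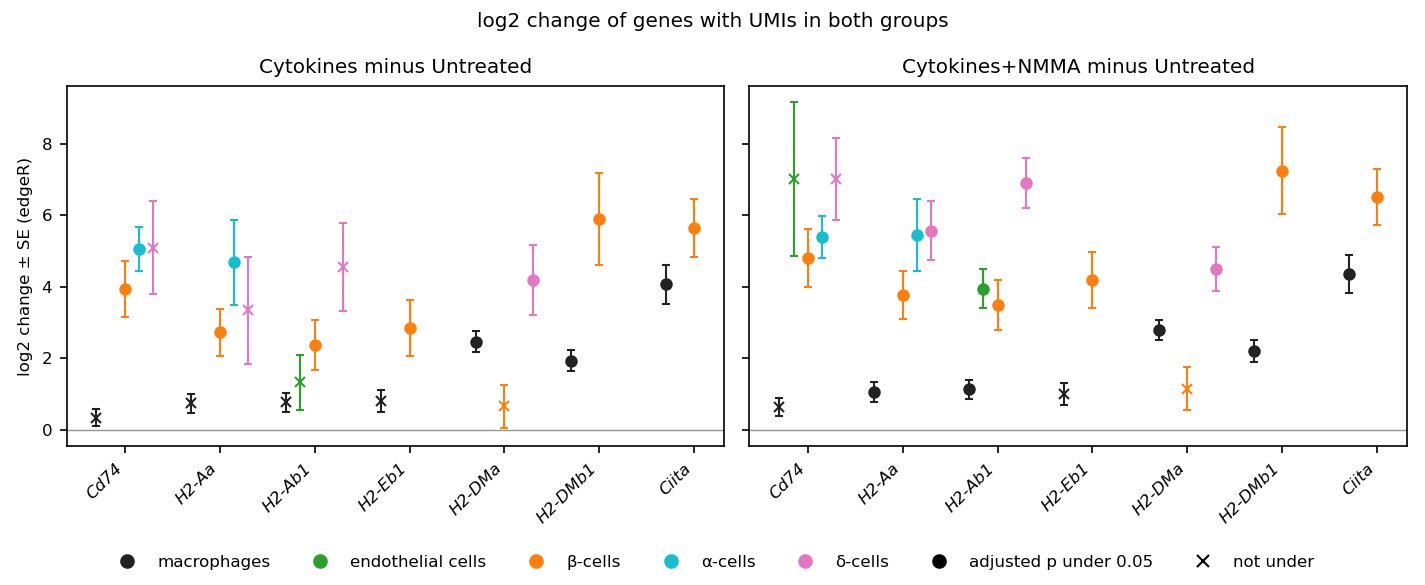
log2 change from untreated (y, edgeR, bars ± 1 SE) of the 7 genes with cytokines (left) and with cytokines and NMMA (right) in 5 classes, where filled points have an adjusted p under 0.05 and crosses do not, and genes without UMIs in 1 of the groups are left out. Macrophage points lie at 0.34 to 1.13 for Cd74 and the chain genes and at 1.94 to 4.35 for H2-DMa, H2-DMb1 and Ciita, and the β-cell points lie between 2.37 and 7.25 for every gene but H2-DMa.

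The plot of log2 changes puts the 2 loading genes side by side. H2-DMb1 and Ciita in β-cells, H2-Aa in α-cells and Cd74 in endothelial cells stand on 1 untreated UMI each. In δ-cells H2-DMa stands on 2 and H2-Ab1 on 3, and so does Ciita in macrophages on 3. The height of those points depends on the small count that edgeR adds.

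The comparison that bears on nitric oxide is cytokines against cytokines with NMMA. In none of the 6 classes was a member called in it. Of all genes, 19.3% were called in β-cells. The share was 10.4% for α-cells, 2.2% for δ-cells, 0.0394% for macrophages and 0 for endothelial and mesenchymal cells. At an unadjusted p under 0.05 there was 1 member each in α-cells (H2-Eb1), δ-cells and endothelial cells (both H2-Ab1), and DESeq2 called 0 members in every class.

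All 31 fitted changes of this comparison were negative, that is, lower without the inhibitor. Some in mesenchymal, α- and δ-cells turned positive without 1 library, without cells holding macrophage UMIs or under the replicate block. The 31 fits share libraries and cells and are not independent. In endothelial cells of Cytokines+NMMA replicate 1, 1 cell held 124 of the 138 class II UMIs. In β-cells the ratio of cytokines to cytokines with NMMA was 0.49 for Cd74, 0.434 for H2-Aa, 0.412 for H2-Ab1, 0.35 for H2-Eb1, 0.357 for H2-DMb1, 0.477 for Ciita and 0.61 for H2-DMa. For 6 of 7, all but Cd74, both cytokine libraries lay under both libraries with NMMA, a pattern that 35.6% of all genes showed in β-cells. In macrophages the ratios were 0.753 to 0.851, and 6 of 7, all but H2-DMa, did not overlap (16.4% of all genes). In δ-cells, with 1 cytokine library, Cd74 had a ratio of 0.26 (0.196 to 0.338) and H2-Eb1 of 0.071. The fitted log2 change of Cd74 was -0.88 ± 0.67 in β-cells, -0.33 ± 0.40 in α-cells, -1.93 ± 1.12 in δ-cells and -0.30 ± 0.24 in macrophages. With the replicate as a block, H2-Eb1 and H2-DMb1 were called lower in β-cells, 4 members in δ-cells and Cd74 and H2-Ab1 in endothelial cells. For cells of a class in a pool, fewer cells with the RNA and less RNA per cell cannot be told apart in the sums.

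NMMA alone was compared with untreated in the same fits. By edgeR no member and no other gene was called in any class, and DESeq2 called no member. At an unadjusted p under 0.05 the count of members was also 0 in every class, and the fitted change was mixed in sign.

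The members did not keep the same proportions in every class. Cd74 UMIs per UMI of the 3 chain genes were 1.10 to 1.12 in untreated macrophages, 0.779 to 0.878 with cytokines, 0.775 to 0.889 with cytokines and NMMA and 1.13 to 1.27 with NMMA. In β-cells the same number was 4.13 to 4.30 with cytokines and 3.22 to 3.54 with cytokines and NMMA. In α-cells it was 2.54 to 3 and 1.65 to 2.10, and in δ-cells 2.64 and 1.72 to 1.85. In every endocrine class the cytokine libraries were above those with cytokines and NMMA, and all of these were above all macrophage libraries. Ciita per 1000 Cd74 UMIs was 0.455 to 0.520 in untreated macrophages, 7.06 to 7.17 with cytokines and 6.14 to 8.07 with cytokines and NMMA. It was 16.8 to 34.1 and 17.2 to 31.0 in β-cells and 17.7 to 21.0 in δ-cells with cytokines and NMMA.

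**Figure D5:**
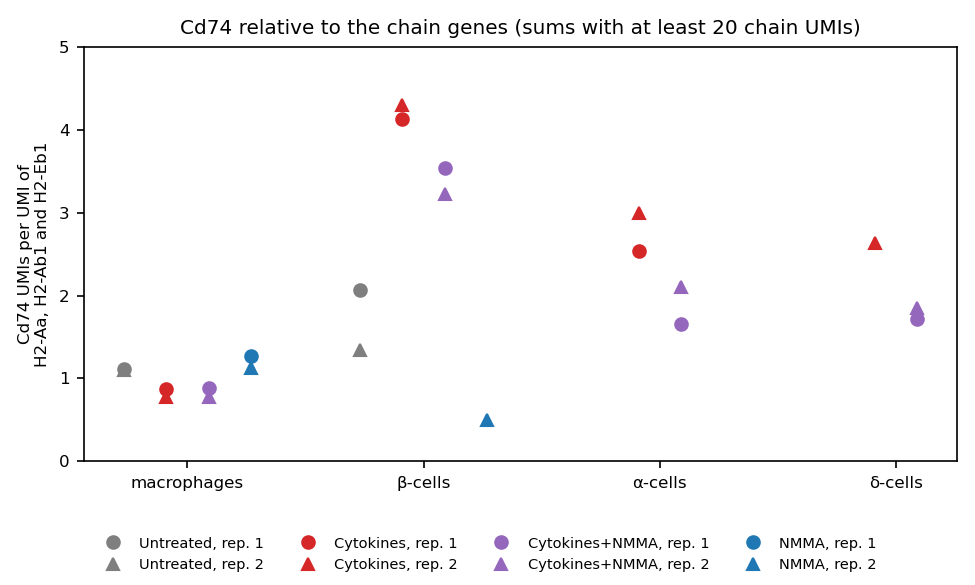
Cd74 UMIs per UMI of H2-Aa, H2-Ab1 and H2-Eb1 together (y) in 4 classes, for class and library sums with at least 20 UMIs of the chain genes, with colours for the condition and circles and triangles for replicates 1 and 2. Macrophages lie at 0.775 to 1.27, and β-cells with cytokines at 4.13 to 4.30.

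In the plot of Cd74 per chain UMI the β-cells of both cytokine conditions lay above the other classes, while α- and δ-cells overlapped. Without cytokines β-cells were lower, at 2.06 and 1.34 untreated and at 0.5 in NMMA replicate 2. The replicates of β-cells with cytokines lay at 4.13 and 4.30, while their Cd74 levels were 75.22 and 30.10 CPM.

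The route from the IFN-γ receptor to Ciita was read from a list of 9 genes. With cytokines 3 of 9 were higher in macrophages, 4 in endothelial cells, 3 in mesenchymal cells, 8 in β-cells, 7 in α-cells and 5 in δ-cells, and none was lower. All 9 were tested in each class, and the shares of all genes called higher were 3.8, 4.58, 1.69, 23.8, 12.3 and 4.48% in the same order of classes. Irf1 (a transcription factor that acts on the Ciita promoter) and Socs1 (a feedback inhibitor of the kinases) rose in all 6 classes. The log2 change of Irf1 was between 3.21 (β-cells) and 4.87 (mesenchymal cells). With cytokines Ciita had 0 UMIs among 603906 of endothelial cells and 1 among 458620 of mesenchymal cells. With cytokines and NMMA it had 13 and 3 UMIs. The cytokine sums are too small to show a level as low as that of Ciita in β-cells, so no lack of response is read from them. Between cytokines and cytokines with NMMA, Irf1 (-0.61 ± 0.12, adjusted p = 0.0107) and Socs1 (-1.58 ± 0.17, adjusted p = 0.00184) were lower without NMMA in β-cells.

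Of 7 genes of the factors that sit on the X and Y boxes, 3 were higher with cytokines in β-cells (23.8% of all genes), with log2 changes of 0.77 ± 0.16 for Rfx5, 0.51 ± 0.16 for Rfxap and 0.68 ± 0.22 for Nfya. Rfxap was called in α-cells (0.93 ± 0.24), where 6 were tested, and none was called among the 3 tested in macrophages, 5 in endothelial cells, 4 in mesenchymal cells and 7 in δ-cells. None of 4 further class II genes (H2-DMb2, H2-Oa, H2-Ob and H2-Eb2) passed the filter on low counts in any class.

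The list of proteases that cut the invariant chain and prepare peptides held 7 genes, of which 6 were tested in β-cells, 4 in α-cells and 5 in δ-cells. Ctsl, Ctsb and Lgmn were higher with cytokines in β-cells (log2 changes 1.04 ± 0.17, 1.81 ± 0.23 and 1.42 ± 0.15) and in α-cells (1.33 ± 0.22, 1.04 ± 0.20 and 1.5 ± 0.26), and Ctsb (1.77 ± 0.30) and Lgmn (2.36 ± 0.32) in δ-cells, where 23.8, 12.3 and 4.48% of all genes were higher. In macrophages Ctsl was lower (-0.93 ± 0.26, adjusted p = 0.0483) and none was higher.

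Of 8 genes of costimulation and adhesion, 4 could be tested in macrophages and β-cells and 3 in each other class. With cytokines all of these were higher but for 2 in mesenchymal cells, where 1 was, and the shares of all genes higher were 3.8% in macrophages, 23.8% in β-cells and 1.69 to 12.3% in the others. Cd274, which encodes the inhibitory ligand PD-L1, rose in all 6 classes, by 4.0 ± 0.33 in macrophages, 7.88 ± 0.40 in endothelial cells, 5.89 ± 0.75 in mesenchymal cells, 5.54 ± 0.23 in β-cells, 4.59 ± 0.29 in α-cells and 4.85 ± 0.45 in δ-cells. Cd40, the receptor for T-cell help, and Icam1, an adhesion ligand, rose in every class but mesenchymal cells, where their log2 changes were 2.74 (adjusted p = 0.123) and 5.74 (adjusted p = 0.0503). In β-cells Cd40 (1.36 ± 0.19, adjusted p = 0.00372) and Icam1 (1.30 ± 0.31, adjusted p = 0.0277) were higher with cytokines than with cytokines and NMMA, in the opposite direction to the fitted changes of the class II genes.

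Genes with a pattern most like Cd74 were named from the correlation of log2(CPM + 1) over the 47 class and library sums, which share libraries and are no independent samples. They were Mpeg1 (r = 0.961), Cd68 (0.929), Epsti1 (0.903), Grina (0.892) and Gla (0.882). For Ciita they were Acod1 (0.855), Plaat3 (0.837), Grina (0.833), Mpeg1 (0.812) and Serpina3g (0.803). Among the members, H2-Aa was nearest to Cd74 (0.971) and H2-DMb1 nearest to Ciita (0.875).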

How the data were processed

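Single-cell RNA libraries (10x Genomics 3′ chemistry, version 2 in the labels and version 3 in the study's methods) of 8 islet samples were analysed. Per sample, the authors deposited a matrix of unnormalised UMI counts (genes by barcodes), made with Cell Ranger 3.0.0 (replicate 1) and 6.0.0 (replicate 2) per the file headers and with mm10 per the submitters' processing notes. Replicate 1 listed 31053 genes and replicate 2 32285, and the 30406 shared genes held 99.65 to 99.96% of the UMIs.

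Barcodes with 200 to 5500 genes (6500 in replicate 2) and at most 10% mitochondrial UMIs were kept. Cells were clustered with scanpy 1.11.5 (2000 variable genes, 30 components, 20 neighbours, leiden resolution 1), leaving out class II genes, 4 of which were variable. Clusters were named from fixed markers. Simulated doublets were scored at a rate of 0.8% per 1000 barcodes, which called 200, and these stayed in and were left out as an alternative.

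UMIs were summed per class and library with at least 10 cells. Sums were tested with edgeR 4.0.16 (TMM, filterByExpr, quasi-likelihood F test, robust) over the 4 conditions in 1 fit without a block, at a Benjamini-Hochberg adjusted p of 0.05 over all genes tested, and an SE is the log2 change over the root of F. The study tested single cells, which are not replicates. Differences between classes were fitted with the library as a block. DESeq2 1.42.0 was an alternative. Ratios of summed UMIs have exact intervals at 95%, which like shares cover counting error only, and a gene at 0 was set to 3 UMIs over the group. For shares each cell was thinned to a fixed number of UMIs, leaving out shallower cells.

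Replicate numbers pair samples, since each replicate was 1 pool of islets divided over the conditions. Deviations from the condition means correlated in every pair of conditions (lowest r 0.121, in mesenchymal cells), so the block is given where it changed a call. On simulated counts for cytokines against untreated, 38.4% of 2-fold and 99% of 8-fold changes were recovered in β-cells (12542 genes), 17.7 and 93.6% in macrophages (4821) and 4.17 and 65.6% in δ-cells (9089).

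The 7 genes and the lists were chosen with earlier results of these data known. All 7 were named in every class, as were up to 3 called genes with the largest change per list and the 5 genes most like Cd74 and Ciita. Alternatives were the scaling, the filter, the block, each library left out, doublets, class II genes in the clustering, thinning, the cell minimum and cells with macrophage UMIs. The macrophage references of 4 and 10 genes and the class differences with NMMA or δ-cells were added after seeing the data. Promoters of H2-Ab1 and Ciita were not analysed here, and 1 gene that the rule named is not reported here.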

Additional observations from a re-analysis of the deposited data

Results flagged for a closer look

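The cytokine response differed between macrophages and β-cells by a test of the difference itself (edgeR quasi-likelihood, Benjamini-Hochberg adjustment). The log2 change in macrophages minus that in β-cells was -1.87 for H2-Aa (adjusted p = 0.00531), -1.59 for H2-Ab1 (adjusted p = 0.000366), 1.78 for H2-DMa (adjusted p = 0.000228) and -3.78 for H2-DMb1 (adjusted p = 0.00149) with cytokines. With cytokines and NMMA it was -2.63 (adjusted p = 7.9e-05), -2.39 (adjusted p = 1.07e-08), 1.67 (adjusted p = 0.000827) and -4.82 (adjusted p = 3.59e-06) for the same genes. H2-DMb1 had 1 UMI in untreated β-cells. Without the library block 0 of these differences were called with cytokines and 1 with cytokines and NMMA.

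δ-cells and β-cells differed by the same kind of test with cytokines and NMMA, by 2.15 for Cd74 (adjusted p = 0.0101), 3.46 for H2-Ab1 (adjusted p = 9.39e-05) and 3.47 for H2-DMa (adjusted p = 0.0155). None of these was called without the library block.

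Outside the 6 classes, Cd74 was seen in ductal cells and B cells. In 14 ductal cells of Cytokines replicate 1 there were 376 Cd74 UMIs, against 1 and 0 in untreated ductal cells. Of these cells 1 held 243 of the 641 class II UMIs. Cytokines replicate 2 had 7 ductal cells and 0 Cd74 UMIs. In 17 B cells of NMMA replicate 1 there were 1131 Cd74 UMIs, and the untreated libraries held no cell of that cluster. The causes were not tested.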

How the results depend on the processing

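Of 34 calls of a member against untreated or otherwise, 22 were lost under at least 1 alternative and none of the 34 changed direction. DESeq2, leaving out doublets and keeping class II genes in the clustering left each count of called members within 1.5 times its value. The genes called were not the same throughout. In δ-cells with cytokines and NMMA, DESeq2 called Cd74 and did not call H2-Aa and Ciita. It also did not call H2-DMa in δ-cells with cytokines. With class II genes in the clustering H2-Eb1 was not tested in α-cells.

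Without the filter on low counts, 6 members were called in macrophages with cytokines, 3 in endothelial cells with cytokines and NMMA and 1 for cytokines against cytokines and NMMA, 1 and 3 in mesenchymal cells with cytokines and with cytokines and NMMA, 5 in β-cells for cytokines against cytokines and NMMA and 1 for NMMA alone, and 5 and 3 in δ-cells with cytokines and against cytokines and NMMA. With the replicate block, which uses the pairing, the counts were 6 in macrophages with cytokines, 2 and 2 in endothelial cells with cytokines and NMMA and for the inhibitor comparison, 2 in β-cells for the latter, and 7, 7 and 4 in δ-cells for cytokines, cytokines and NMMA, and the inhibitor comparison. Other counts stayed within 1.5 times under the block.

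Leaving out 1 library at a time gave 3 to 6 in macrophages with cytokines and NMMA, 1 to 3 in endothelial cells with cytokines and NMMA and 0 to 3 for the inhibitor comparison, 1 to 6 in β-cells with cytokines and 2 to 6 with cytokines and NMMA, 2 to 4 in α-cells with cytokines, and 0 to 3 in δ-cells with cytokines and for the inhibitor comparison. For differences between classes the ranges were 1 to 6 (macrophages and β-cells, cytokines), 0 to 2 (α- and β-cells, cytokines) and 0 to 4 (δ- and β-cells, cytokines and NMMA). Without the block, which for these differences is the library, they numbered 0 and 1 for macrophages and β-cells, 0 and 0 for α- and β-cells and 0 for δ- and β-cells with cytokines and NMMA, and scaling by total UMIs gave 1 for δ- and β-cells with cytokines.

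Without cells holding a UMI of the 12 macrophage markers, 1 and 2 members were called in α-cells and 0 in δ-cells with cytokines and NMMA, from fewer cells. Without cells holding a UMI of the 4-gene reference, or with at least 5 cells per sum, 2 were called in δ-cells with cytokines. Without thinning, mean shares over libraries were 28.9 and 47.9% for Ciita in macrophages, 37.3 and 38.9% for Cd74 in β-cells, 29.8 and 41.1% in α-cells and 24.4 and 37.6% for H2-Ab1 in endothelial cells, with cytokines and with cytokines and NMMA. Without cells with macrophage markers they were 24.9% for Cd74 in α-cells, 57.6% in δ-cells and 14.9% for H2-Ab1 in endothelial cells with cytokines and NMMA, and without the 4-gene reference 28.5% in α-cells and 18.3% in endothelial cells. The mean of Cd74 over its macrophage ratio with the 4-gene reference was 130 and 169 in β-cells, 50.2 and 85.7 in α-cells and 1011 in δ-cells with cytokines and NMMA, and with the 10 markers 45.01 and 78.1 in β-cells, 48.4 and 81.4 in α-cells and 26.7 and 556 in δ-cells.

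Values that were not called changed direction in a few settings. In mesenchymal cells H2-Ab1 with cytokines ranged from -0.98 (without Cytokines replicate 1) to 3.74 over the libraries left out and was -3.02 without cells with macrophage markers. For cytokines against cytokines and NMMA, H2-Aa, H2-Ab1 and H2-Eb1 there were 0.080, 0.53 and 0.80 without Cytokines replicate 2 and -6.81, -3.79 and -6.95 without Cytokines replicate 1, and H2-Ab1 was 0.24 without the 4-gene reference. In α-cells Cd74 was 0.18 without Cytokines+NMMA replicate 1 and 0.053 without Cytokines replicate 2, with -0.71 as the lowest value, H2-Aa ranged from -1.89 to 0.15, and Ciita in δ-cells was 0.25 under the block. The causes were not tested. With 2 pools a condition and 9 and 12 δ-cells under cytokines, small changes were not detectable in that class.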
